A study of Homo sapiens with 16 samples.

Results

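The NF-κB and inflammatory cytokine genes described here are 10 genes: CXCL8, IL6, LIF, CXCL2, NFKBIA, NFKB2, RELB, TNFAIP3, BIRC3 and ICAM1. They were taken by name, through a match of the transcript identifiers of both tables to GENCODE symbols. Of the 10 genes, 9 were listed among the 10799 transcripts of the table for MDA-LM2 and parental cells (CXCL2 was not), and 6 among the 8980 transcripts of the table for the HNRNPC knockdown (CXCL2, LIF, TNFAIP3 and BIRC3 were not). As 97.9% of the identifiers in each table matched, a gene called not listed could stand under an unmatched identifier. A listed transcript had at least 5 RNA reads in every library of its table, so a gene that is not listed has no value here, which is not a value of 0.

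Ribosome-protected footprints (RPF, the mRNA pieces shielded by translating ribosomes) and total RNA were sequenced from shared lysates of 4 lines of human breast cancer cells. The parental cells, MDA-MB-231, are a triple-negative line, and MDA-LM2 is its derivative selected in mice for lung colonisation. The sgControl and sgHNRNPC lines are MDA-MB-231 cells that carry the CRISPR interference repressor dCas9-KRAB with a control guide or a guide against HNRNPC, an RNA-binding protein, made by lentiviral transduction and drug selection. All lines were cultured in high-glucose DMEM with serum, and no cytokine or other NF-κB stimulus is named for any group. Each line gave 2 replicate lysates, hence 16 samples, and each difference between lines therefore rests on 2 lysates a side and a single derivation of each line.

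NF-κB is a family of dimeric transcription factors built from RELA, RELB, REL, p50 (from NFKB1) and p52 (from NFKB2), held in the cytoplasm by IκB proteins such as the product of NFKBIA until IκB kinases mark these for degradation. Its targets include its own inhibitors (NFKBIA, and TNFAIP3, which encodes the ubiquitin-editing enzyme A20), cytokines and chemokines (IL6, CXCL8, CXCL2), the adhesion molecule ICAM1 and the survival factor BIRC3 (cIAP2). MDA-MB-231 cells are known for constitutive NF-κB activity and for secreting IL-6 and IL-8, and many cytokine mRNAs carry AU-rich elements in their 3′ UTRs through which they are rapidly degraded.

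The sequences that tie these genes together are their promoters. The set of RefSeq promoters used (GRCh38.p14) held those of 8 of the 10 genes, from 250 bases before to 50 after the transcription start. LIF and RELB were absent from that set. A loose κB spelling, GGG and CC with any 5 bases between them, occurred on either strand in all 8, but also in 58.7% of all 35116 promoters of the same length, so that it separates little. A narrower spelling, GGANNTTCC on either strand, chosen after the promoter letters had been seen, occurred in a promoter of 7 of the 8 genes (not of BIRC3) and in 4.6% of all promoters. The member figures count genes and the shares count promoters. NFKB2 has several promoters, and not all hold the narrower spelling. The promoters of CXCL8, IL6 and ICAM1 are shown because these are the genes that rose in MDA-LM2, and that of NFKBIA because its values did not follow them. Capitals mark the narrower κB spelling.
CXCL8 promoter, chr4:73740319-73740618, plus strand: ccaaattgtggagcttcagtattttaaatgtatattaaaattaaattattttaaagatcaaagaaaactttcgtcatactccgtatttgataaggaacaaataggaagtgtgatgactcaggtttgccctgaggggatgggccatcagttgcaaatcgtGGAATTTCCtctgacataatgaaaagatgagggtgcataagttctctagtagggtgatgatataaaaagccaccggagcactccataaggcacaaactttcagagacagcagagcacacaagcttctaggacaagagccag
IL6 promoter, chr7:22726950-22727249, plus strand: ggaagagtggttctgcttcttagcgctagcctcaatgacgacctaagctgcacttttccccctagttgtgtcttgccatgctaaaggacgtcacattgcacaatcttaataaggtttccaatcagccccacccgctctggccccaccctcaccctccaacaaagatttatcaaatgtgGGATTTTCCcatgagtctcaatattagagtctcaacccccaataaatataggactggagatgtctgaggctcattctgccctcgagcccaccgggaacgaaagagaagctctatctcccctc
ICAM1 promoter, chr19:10270870-10271169, plus strand: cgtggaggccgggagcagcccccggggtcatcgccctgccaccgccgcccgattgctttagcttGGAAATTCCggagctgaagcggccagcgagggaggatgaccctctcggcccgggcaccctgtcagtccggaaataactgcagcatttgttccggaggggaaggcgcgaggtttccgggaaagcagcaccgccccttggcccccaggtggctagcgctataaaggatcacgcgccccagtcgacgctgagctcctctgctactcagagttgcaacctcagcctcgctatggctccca
NFKBIA promoter, chr14:35404700-35404999, minus strand: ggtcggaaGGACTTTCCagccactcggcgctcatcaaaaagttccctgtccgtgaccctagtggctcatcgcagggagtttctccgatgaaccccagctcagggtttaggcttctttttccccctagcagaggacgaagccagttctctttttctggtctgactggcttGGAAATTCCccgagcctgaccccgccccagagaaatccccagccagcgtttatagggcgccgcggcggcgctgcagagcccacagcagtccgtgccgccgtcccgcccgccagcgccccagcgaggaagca

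In these windows CXCL8 held GGAATTTCC at position -91 from the start, IL6 held GGATTTTCC at -72 and ICAM1 held GGAAATTCC at -186. NFKBIA held the narrower spelling at -242 and at -81. The matches in CXCL8 and ICAM1 and that at -81 in NFKBIA read as the spelling on both strands and are each 1 site, and those of IL6 and of NFKBIA at -81 overlap a match of the loose spelling. The TATA spelling TATAAA, read on the plus strand of the gene, was found in CXCL8 at -31 and in ICAM1 at -30 and in 7.3% of all promoters. The AP-1 spelling TGANTCA was found only in CXCL8 among the 8, at -137, and in 7.7% of all promoters. A match of letters is not evidence of binding in these cells.

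The mRNAs differ as much in their 3′ ends. AUUUA, the core of AU-rich elements, is written ATTTA in the annotated sequence and occurred 9 times in the 1252 bases of the CXCL8 3′ UTR and 6 times in the 425 bases of the IL6 3′ UTR. Among 10544 annotated 3′ UTRs of listed transcripts the median was 2 copies and 1.72 per kb, and 71.5% held at least 1 copy. The density in IL6, 14.12 per kb, was above that of 99.6% of these UTRs, and that in CXCL8, 7.19 per kb, above that of 96.6%. BIRC3 had 12 copies, LIF 7, TNFAIP3 5, NFKBIA 3, ICAM1 2 and NFKB2 1, and RELB had none. By density, NFKB2 (6.76 per kb), NFKBIA (6.0) and BIRC3 (5.22) also lay high, above 95.9%, 94.0% and 91.3% of these UTRs. TNFAIP3 (2.51), LIF (2.19) and ICAM1 (1.51) lay above 63.6%, 58.0% and 46.4%. A high density was thus not particular to CXCL8 and IL6. The 30-base stretches with the most copies are shown for both cytokines that rose and for LIF, the cytokine that did not pass the test, with ATTTA in capitals.
CXCL8 3′ UTR, bases 644 to 673 after the stop codon: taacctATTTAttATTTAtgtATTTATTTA
IL6 3′ UTR, bases 124 to 153 after the stop codon: ttttaattatttttaATTTAttaatATTTA
LIF 3′ UTR, bases 3100 to 3129 after the stop codon: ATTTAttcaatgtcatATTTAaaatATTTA

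HNRNPC is known for binding poly(U) elements, of which only the spelling of a C followed by a run of 6 T was searched. It occurred in the 3′ UTRs of LIF and BIRC3 and in no other listed member, against 42.9% of all UTRs. Runs of T after another base were not counted, so the other members may hold poly(U) elements. Neither LIF nor BIRC3 was listed in the knockdown table. Of read-sized windows of 30 bases, 41 of the 3735 in the BIRC2 mRNA were shared with BIRC3, so a small part of their reads could be assigned to either gene. No window was shared within NFKB1 and NFKB2, within REL, RELA and RELB, or within NFKBIA, NFKBIB and NFKBIE.

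All values below are normalised counts, scaled by the authors separately for RNA and for RPF and separately for the 2 tables, so levels are compared within a table and kind of library only. RNA reads on listed transcripts numbered 7517953 to 8193031 per library for MDA-LM2 and parental cells and 5141959 to 6164753 for the knockdown lines. The depth of the RPF libraries in reads is unknown. Their normalised totals were 650736 to 679726 and 158011 to 167928, so the knockdown RPF values are the least precise. The mesenchymal markers VIM, CD44, AXL and CAV1 were listed in both tables with a summed RNA value between 23056 and 77695, whereas ESR1, PGR and CDH1 were not listed and EPCAM lay between 31.9 and 86.9, as the line labels would have it. Of 10 immune cell markers only CD68 was listed. RNA replicates of MDA-LM2 lay further apart than those of parental cells, with an SD of the log2 difference over 8393 transcripts of 0.315 against 0.17.

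Comparing MDA-LM2 with parental cells, CXCL8, IL6 and ICAM1 were higher in both RNA and RPF, and no other member passed the test in either. Testing was by limma on log2(value + 1), for transcripts whose mean reached 10 in RNA and also in RPF, and calls were made at a Benjamini-Hochberg adjusted p under 0.05. Of the 9 listed members, 7 passed this filter, TNFAIP3 and BIRC3 being too low in RPF. CXCL8 and IL6 passed it only through their MDA-LM2 footprints, and IL6 also only through its MDA-LM2 RNA. The counts and medians over the 7 are therefore a description. RNA of 3 members was called higher and of none lower, against 5.80% higher and 9.44% lower among all 8393 transcripts tested. RPF of the same 3 members was called higher and of none lower, against 5.00% and 7.03% of all transcripts. Both MDA-LM2 libraries lay above both parental ones for 4 of the 7 in RNA (28.5% of all transcripts) and 3 in RPF (25.7%), and below them for none (33.6% and 27.6%). The median RNA change over the 7 was 0.39 (log2) beside -0.02 over all transcripts, and the median RPF change 0.31 beside -0.01.

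**Figure D1:**
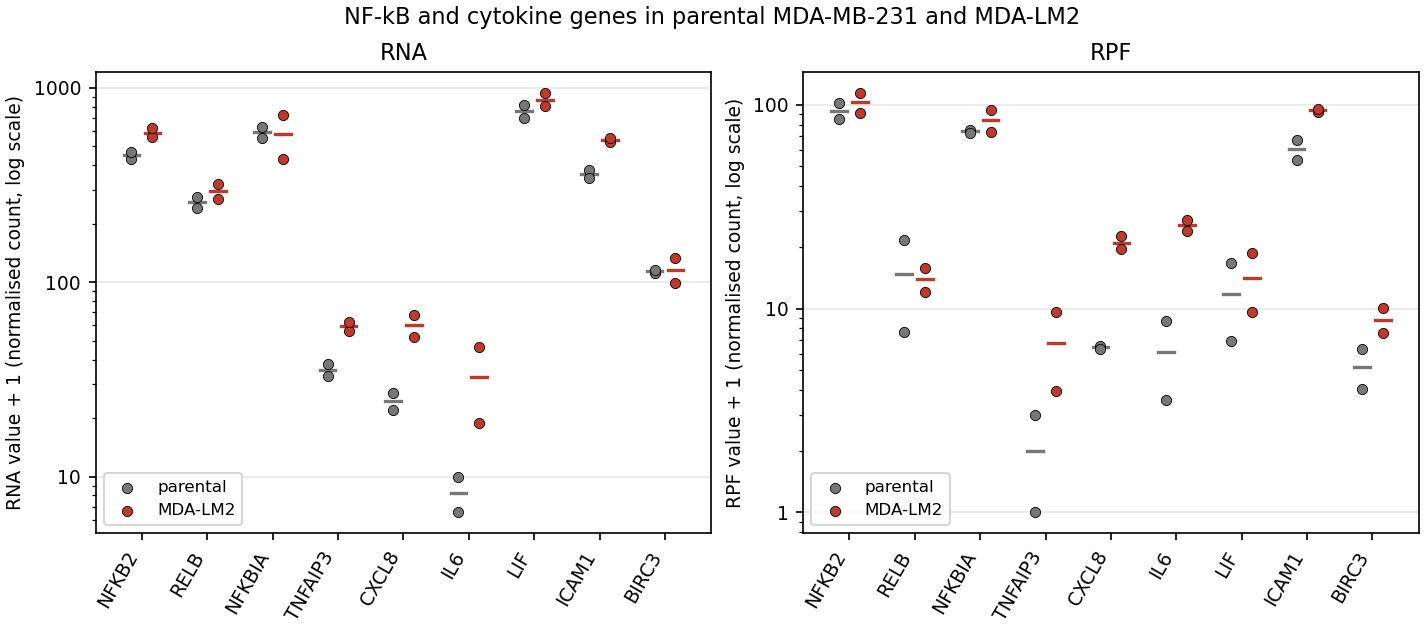
RNA (left) and RPF (right) values of the 9 listed members in parental (grey) and MDA-LM2 (red) cells, as normalised count plus 1 on a log scale; each point is 1 library and each bar the mean of 2. CXCL8, IL6, ICAM1 and TNFAIP3 have both red points above both grey points in both panels, while NFKBIA, RELB and LIF overlap between the lines in both.

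Among the cytokines, CXCL8 encodes interleukin-8, a neutrophil chemoattractant, and its mRNA (ENST00000307407, chr4:73740569-73743716, plus strand, hg38) has a coding sequence of only 300 bases in 1642. Its RNA value was 21.0 and 26.0 in the 2 parental libraries and 66.7 and 51.4 in the 2 MDA-LM2 libraries, from 19 and 26 reads against 71 and 58. In RPF it had 5.58 and 5.33 in parental cells and 21.6 and 18.6 in MDA-LM2. Both kinds thus separated the lines without overlap, at low values throughout. The RNA change was 1.29 ± 0.25 (log2, SE, limma adjusted p = 0.0164), which is 2.44-fold, and the RPF change was 1.71 ± 0.41 (limma adjusted p = 0.00434), which is 3.26-fold. Without MDA-LM2 replicate 1 the RPF change was 1.6 and no longer passed (adjusted p = 0.0774).

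IL6 encodes interleukin-6, which signals through gp130 to STAT3 (ENST00000258743, chr7:22727200-22731998, plus strand). Its RNA value was 5.54 and 8.99 in parental cells and 17.9 and 45.2 in MDA-LM2, and the first of these is only 5 reads. Footprints gave 2.57 and 7.73 in parental cells and 26.2 and 23.0 in MDA-LM2. The MDA-LM2 RNA libraries differed from each other more than the lower one differed from parental cells, whereas their footprints were close. The RNA change was 1.87 ± 0.49 (limma adjusted p = 0.0452) and the RPF change 2.20 ± 0.43 (limma adjusted p = 0.000528), or 3.65-fold and 4.58-fold. The RNA call ended without MDA-LM2 replicate 2 (1.22, adjusted p = 0.0849) and, narrowly, with an added value of 5 (adjusted p = 0.0504) or with voom on recovered reads (adjusted p = 0.0507).

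LIF encodes leukaemia inhibitory factor, another cytokine of the gp130 family (ENST00000249075, chr22:30240453-30246759, minus strand). Its RNA was the most abundant of the listed members in counts, at 811 and 703 in parental cells and 938 and 803 in MDA-LM2. The footprint value was only 15.7 and 5.94 in parental cells and 8.61 and 17.7 in MDA-LM2, with the replicates of each line further apart than the lines. Neither the RNA change of 0.20 ± 0.13 (limma adjusted p = 0.334) nor the RPF change of 0.31 ± 0.45 (limma adjusted p = 0.717) passed the test. Without MDA-LM2 replicate 2 the RNA change was 0.31 and passed, in a fit where many more of all transcripts passed too. The large RPF error leaves room for a change of some size in either direction.

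Of the surface and survival genes, ICAM1, the adhesion molecule bound by leukocyte integrins (ENST00000264832, chr19:10271120-10286615, plus strand), was the other member called in both RNA and RPF. Its RNA value was 375 and 341 in parental cells and 523 and 554 in MDA-LM2. Its RPF value was 52.8 and 66.1 in parental cells and 91.4 and 94.4 in MDA-LM2. The lines did not overlap in either kind. RNA rose by 0.59 ± 0.12 (limma adjusted p = 0.0183) and RPF by 0.64 ± 0.17 (limma adjusted p = 0.00769), or 1.5-fold and 1.56-fold. The RNA call was lost without parental replicate 1 (0.66, adjusted p = 0.094) or parental replicate 2 (0.52, adjusted p = 0.21), and the RPF call without parental replicate 1 (0.48, adjusted p = 0.113) or MDA-LM2 replicate 2 (0.62, adjusted p = 0.0505).

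BIRC3, the ubiquitin ligase cIAP2 that acts in tumour necrosis factor receptor complexes (ENST00000263464, chr11:102317484-102339403, plus strand), was left out by the filter. Its RNA value was 111 and 115 in parental cells and 97.7 and 132 in MDA-LM2, overlapping. In RPF it had 5.34 and 3.03 in parental cells and 9.06 and 6.60 in MDA-LM2, without overlap but at very low values. With no filter on low values the RNA change was 0.01 ± 0.18 and the RPF change 0.79 ± 0.52 (limma adjusted p = 0.40).

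The NF-κB subunits among the members moved little. NFKB2 encodes p100, the precursor of p52 (ENST00000369966, chr10:102394503-102402524, plus strand), and its RNA value was 432 and 465 in parental cells and 558 and 618 in MDA-LM2. Footprints gave 101 and 84.0 in parental cells and 90.5 and 113 in MDA-LM2. RNA was higher in both MDA-LM2 libraries and footprints overlapped. The RNA change of 0.39 ± 0.12 lay just outside the threshold (limma adjusted p = 0.0667). It passed with the replicate number as a block (limma adjusted p = 0.041). It also passed with libraries scaled to equal totals (0.56, limma adjusted p = 0.0293), which shifted RNA changes by 0.17 at the median over all transcripts. Without either MDA-LM2 replicate it passed too, but so did many more of all transcripts. Across the alternatives the change ran from 0.32 to 0.56, and it did not pass in all of them. The RPF change was 0.13 ± 0.15 (limma adjusted p = 0.639).

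RELB, the partner of p52 in the non-canonical pathway (ENST00000221452, chr19:45001464-45038192, plus strand), had RNA values of 274 and 239 in parental cells and 321 and 266 in MDA-LM2. Footprint values were 20.8 and 6.72 in parental cells and 11.1 and 14.8 in MDA-LM2. Both overlapped between the lines. The RNA change was 0.19 ± 0.15 (limma adjusted p = 0.399) and the RPF change 0.10 ± 0.42 (limma adjusted p = 0.926). Without MDA-LM2 replicate 2 the RNA change was 0.33 and passed, as did many more of all transcripts in that fit.

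The inhibitors differed from each other. NFKBIA, which encodes IκBα, the inhibitor resynthesised after each round of NF-κB activity (ENST00000216797, chr14:35401513-35404749, minus strand), had RNA values of 629 and 549 in parental cells and 727 and 432 in MDA-LM2. Footprint values were 74.2 and 72.0 in parental cells and 93.8 and 72.3 in MDA-LM2. The 2 MDA-LM2 RNA libraries lay on either side of the parental ones. The RNA change was -0.07 ± 0.23 (limma adjusted p = 0.865), and its sign was set by the library left out: -0.44 without MDA-LM2 replicate 1 (adjusted p = 0.0001) and 0.31 without MDA-LM2 replicate 2 (adjusted p = 0.00929). The RPF change was 0.17 ± 0.16 (limma adjusted p = 0.566).

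TNFAIP3, which encodes A20 (ENST00000237289, chr6:137867444-137883312, plus strand), had RNA values of 32.1 and 37.0 in parental cells and 55.4 and 61.2 in MDA-LM2. Its RPF value was listed at 0 and at 2.0 in parental cells and was 2.94 and 8.63 in MDA-LM2. Both kinds were higher in both MDA-LM2 libraries, but the footprints were too few for the filter. With no filter, the RNA change was 0.74 ± 0.21 (limma adjusted p = 0.0464) and the RPF change 1.83 ± 0.73 (limma adjusted p = 0.127). In that fit over all 9 listed members, RNA of 4 was called higher (the 3 above and TNFAIP3) against 6.61% of all 10799 transcripts, and RPF of 3 against 3.56%.

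The ratio of footprints to RNA, the translation efficiency (TE), was tested as the difference between the RPF and RNA changes in a single limma model. None of the 7 members passed (limma, 0 called, 0 at an unadjusted p under 0.05), against 0.0357% of all 8393 transcripts called and 5.42% at an unadjusted p under 0.05. Logistic regression on the normalised counts, the test of the study, likewise called none of the 7. For CXCL8 there were 26.5 and 20.5 footprint counts per 100 RNA counts in parental lysates and 32.4 and 36.1 in MDA-LM2 lysates, a TE change of 0.42 ± 0.43 (limma adjusted p = 0.942). For ICAM1 there were 14.1 and 19.4 per 100 in parental and 17.5 and 17 in MDA-LM2, a TE change of 0.05 ± 0.21 (limma adjusted p = 0.985). IL6 varied most between lysates, with 46.4 and 86.0 per 100 in parental and 147 and 50.9 in MDA-LM2, and its TE change was 0.33 ± 0.71 (limma adjusted p = 0.969). The TE estimates of NFKBIA and NFKB2 were 0.24 ± 0.30 and -0.26 ± 0.22, that of LIF 0.11 ± 0.50 and that of RELB -0.10 ± 0.52. The errors, between 0.21 and 0.71 on the log2 scale, set how small a TE change could have been seen.

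**Figure D2:**
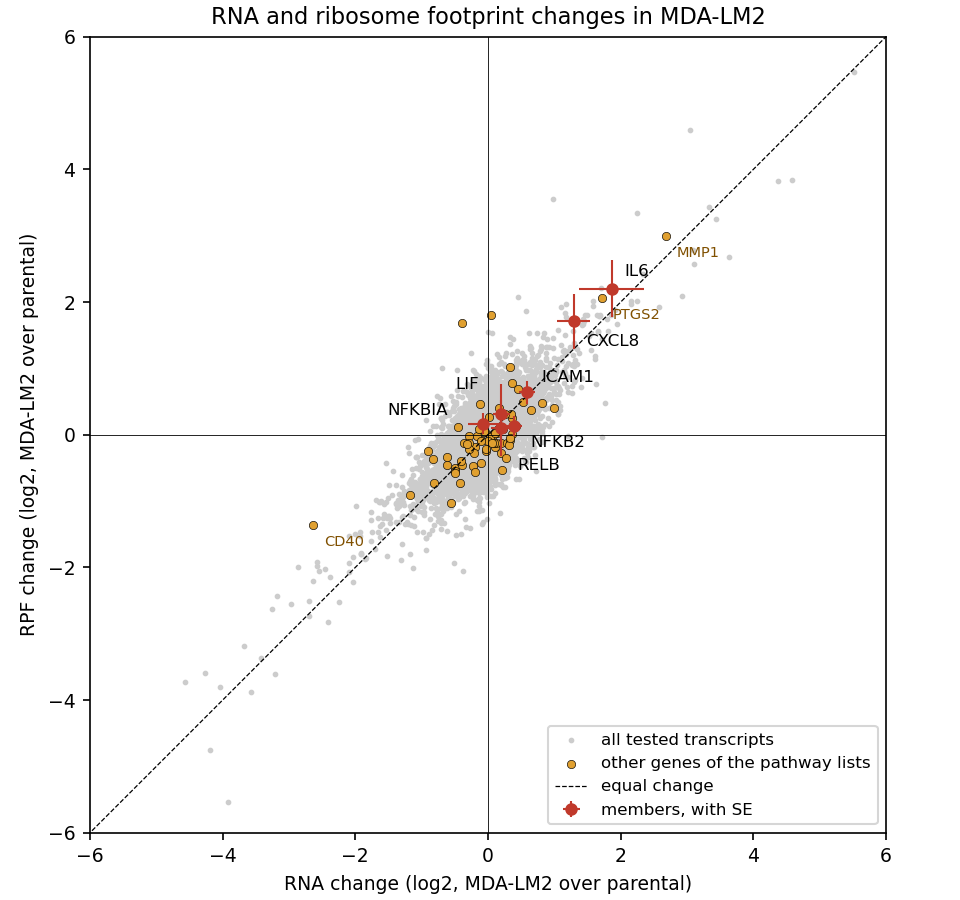
Change in RNA (horizontal) against change in RPF (vertical) between MDA-LM2 and parental cells, both in log2, for 8393 tested transcripts (grey), the other genes of the pathway lists (orange) and the 7 tested members (red, with SE bars); the dashed line marks equal change. IL6, CXCL8 and ICAM1 lie in the upper right near the line of equal change and the other 4 members lie near the centre.

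Markers of other cells were read beside these results. The summed RNA of the fibroblast markers was 54.3 and 59.0 in parental and 604 and 895 in MDA-LM2, almost wholly from COL1A1 (9.97 and 21.0 against 580 and 879), while PDGFRA, LUM and DCN were not listed; its part in the result was not tested. CD68 was 306 and 318 in parental and 279 and 500 in MDA-LM2, and the other immune markers were not listed. Of 4 endothelial markers only KDR was listed, at 32.1 and 46.0 in parental and 53.6 and 66.5 in MDA-LM2, and its part was not tested. In lysates of whole cultures, more cells that express a cytokine and more RNA per cell cannot be told apart. When each library was instead scaled to the same total, the RNA changes shifted by 0.17 at the median over all transcripts. Higher calls then made up 66.6% of RNA calls, against 38.1% as deposited, and 54.3% of RPF calls, against 41.6%. IL6, CXCL8 and ICAM1 were called higher in RNA under that scaling too, by 2.03, 1.45 and 0.76.

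The rest of the pathway was mixed. Of 110 further genes in the 7 lists, 85 were listed and 70 tested in the MDA-LM2 table, and 5 were called higher and 9 lower in RNA, near the shares of all transcripts (5.80% and 9.44%). In RPF 6 were called higher and 7 lower, against 5.00% and 7.03% of all transcripts. In TE limma called none, with 7 of the 70 at an unadjusted p under 0.05, against 5.42% of all transcripts. Logistic regression called 7 of the 70 (CD44, HNRNPD, IL1RAP, KHSRP, PLAU, TRADD and ZFP36L1), against 181 of all 8393. MMP1, PTGS2, IL1RAP, TRADD and CD40 reached the RPF filter only through the line where they were high, so these counts are a description. These lists were drawn up with earlier results of the data known.

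Among the cytokines and chemokines, 9 of 24 were listed and 6 tested. CXCL8, IL6 and IL11 were called higher and CSF1 lower in RNA, against 5.80% higher and 9.44% lower of all transcripts. As CXCL8 and IL6 entered the tested set only through their MDA-LM2 footprints, and IL6 also through its MDA-LM2 RNA, this count is a description. IL11, a further gp130 cytokine with a known role in bone metastasis, had RNA values of 565 and 567 in parental and 972 and 811 in MDA-LM2 (change 0.65, limma adjusted p = 0.0168, but 0.111 and 0.0923 without parental replicate 1 or 2), and its footprints, 20.7 and 29.4 against 28.8 and 35.8, overlapped (limma adjusted p = 0.42). CSF1, the macrophage colony-stimulating factor, had RNA values of 1742 and 1844 against 831 and 755 and RPF values of 164 and 169 against 73.0 and 106, and fell by 1.18 in RNA (limma adjusted p = 0.00112) and by 0.91 in RPF (limma adjusted p = 3.68e-05). CXCL1, a chemokine paralogous to CXCL2, did not pass the filter; its RNA was 11.1 and 19.0 against 36.6 and 38.1 (1.30 with no filter, limma adjusted p = 0.0256) while its footprints were 5.42 and 4.40 against 4.15 and 4.71. CXCL3, TNF, IL1A, IL1B, CCL2, CCL5 and CCL20 were among the 15 not listed.

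Among survival, adhesion and other targets, 17 of 23 were tested, 4 were called higher in RNA (ICAM1, MMP1, PLAU and PTGS2) and none lower, against 5.80% and 9.44% of all transcripts, and 5 higher and 1 lower in RPF, against 5.00% and 7.03%. MMP1 and PTGS2 reached the RPF filter only through MDA-LM2 (means of 7.60 and 5.19 in parental cells), so these counts are a description as well. MMP1, an interstitial collagenase known from the lung metastasis signature of this line, had RNA values of 35.4 and 35.0 in parental and 227 and 239 in MDA-LM2 (2.69, limma adjusted p = 0.000142) and RPF values of 6.11 and 9.08 against 63.6 and 70.4 (3.0, limma adjusted p = 1.23e-09). PTGS2, which encodes cyclooxygenase-2, had RNA values of 16.6 and 13.0 against 54.5 and 47.0 (1.72, limma adjusted p = 0.00718) and RPF values of 4.01 and 6.38 against 21.3 and 27.7 (2.06, limma adjusted p = 0.000498). Both genes are members of the same lung metastasis signature and also respond to regulators other than NF-κB. PLAU, the urokinase plasminogen activator, rose by 0.82 in RNA and 0.48 in RPF (limma adjusted p = 0.00582 and 0.00327), though without parental replicate 2 neither passed (0.80 and 0.30, adjusted p = 0.0608 and 0.122) and without MDA-LM2 replicate 2 the RPF change did not (0.37, adjusted p = 0.0554). IRF1, an interferon-responsive transcription factor, passed in RPF only (0.78, limma adjusted p = 0.0154, against 0.36 and 0.0796 in RNA), and the difference between the 2 changes did not pass (TE change 0.42, limma adjusted p = 0.921). Its RPF call was lost without parental replicate 1 (0.50, adjusted p = 0.205) or MDA-LM2 replicate 2 (0.73, adjusted p = 0.101). SQSTM1, the autophagy receptor p62, fell by 0.40 in RPF (limma adjusted p = 0.00482, but 0.0854 without parental replicate 1).

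Of the receptors, adaptors and kinases upstream of NF-κB, 22 of 30 were tested and in RNA 4 were called lower and none higher, against 9.44% and 5.80% of all transcripts. The one-way split did not hold under equal totals, where 2 were lower (CD40 and IKBKG) and 2 higher (MAP3K14 and RIPK1, named after their values were seen). CD40 reached the RPF filter only through its parental footprints, so these counts and its falls are a description. CD40, a receptor that drives non-canonical NF-κB, had RNA values of 186 and 171 in parental and 25.4 and 31.0 in MDA-LM2 and RPF values of 23.3 and 20.5 against 6.35 and 9.78, falls of 2.63 and 1.36 (limma adjusted p = 0.000351 and 0.0135), the latter not passing without parental replicate 1 (adjusted p = 0.11) or MDA-LM2 replicate 1 (0.0964). TNFRSF1A, the main receptor of tumour necrosis factor, fell by 0.61 in RNA and 0.45 in RPF (limma adjusted p = 0.0487 and 0.0396), and neither passed under equal totals (adjusted p = 0.0582 and 0.0732). Its RNA call was also lost without parental replicate 1 or 2 (adjusted p = 0.182 and 0.155), and its RPF call without parental replicate 1 or MDA-LM2 replicate 2 (0.243 and 0.296). Of the IκB kinase subunits, IKBKB and IKBKG fell in RNA, by 0.50 and 0.83 (limma adjusted p = 0.0305 and 0.00375), and CHUK was not called. The IKBKB call was lost under equal totals (adjusted p = 0.117) or without parental replicate 1 or 2. LTBR, the lymphotoxin β receptor, fell by 0.58 in RPF (limma adjusted p = 0.0149, but 0.187 without parental replicate 2 and 0.0611 without MDA-LM2 replicate 2). In the other direction, and reaching the RPF filter only through MDA-LM2, IL1RAP, the shared subunit of interleukin-1 receptors, had RPF values of 3.70 and 9.22 against 23.3 and 23.3 (1.81, limma adjusted p = 0.00246) with RNA of 66.4 and 48.0 against 50.7 and 67.4. TRADD, an adaptor of TNFRSF1A that likewise reached the filter through MDA-LM2, had RPF values of 9.07 and 1.90 against 18.7 and 14.4 (1.69, limma adjusted p = 0.0216), and its call was lost without parental replicate 2 (0.79, adjusted p = 0.283), MDA-LM2 replicate 1 (1.51, 0.155) or MDA-LM2 replicate 2 (1.87, 0.053). The TE changes of IL1RAP and TRADD, 1.76 ± 0.51 and 2.08 ± 0.63, did not pass in limma (adjusted p = 0.731 and 0.819) and were called by logistic regression.

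The list of subunits and that of inhibitors and brakes held few calls. No subunit among the 4 tested passed in RNA or RPF in limma (in RNA 2 at an unadjusted p under 0.05, NFKB1 and NFKB2, against 31.8% of all transcripts, and none in RPF). Under equal totals both of these were called higher in RNA. RELA, the main activating subunit, had RNA values of 545 and 583 in parental and 633 and 567 in MDA-LM2 (0.09, limma adjusted p = 0.641), and NFKB1 changed by 0.35 (limma adjusted p = 0.0889). REL failed the filter with RPF values between 3.39 and 7.82, and its RNA was 236 and 269 against 344 and 567 (0.81 with no filter, limma adjusted p = 0.0391). Of 10 tested inhibitors and brakes, as listed, 1 was called higher and 2 lower in RNA, against 5.80% and 9.44% of all transcripts. CYLD, a deubiquitinase that restrains NF-κB, rose by 1.00 (107 and 121 against 240 and 220, limma adjusted p = 0.00503). COMMD1 and NFKBIZ fell by 0.91 and 0.61 (limma adjusted p = 0.0147 and 0.0312). NFKBIZ did not pass under equal totals (adjusted p = 0.0676) or without parental replicate 1 or 2, and COMMD1 did not without parental replicate 1. NFKBIZ was listed by name, and its fall is not read as the loss of a brake. None of the 10 passed in RPF, where 5.00% of all transcripts were higher and 7.03% lower.

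Downstream of the cytokines, 6 of 12 receptor and signalling genes were tested. In RNA 2 were called lower and 0 higher, against 9.44% and 5.80% of all transcripts. In RPF 1 was called lower and 0 higher, against 7.03% and 5.00%. Those lower in RNA were SOCS3 and PIAS3, both inhibitors of STAT3 signalling. SOCS3, itself a STAT3 target, had RNA values of 1320 and 1241 in parental and 816 and 643 in MDA-LM2 and fell by 0.82 (limma adjusted p = 0.0105), and its RPF change was -0.73 (limma adjusted p = 0.06). PIAS3 fell by 0.55 in RNA and by 1.03 in RPF (limma adjusted p = 0.0284 and 0.000906), its RNA call being lost under equal totals (0.0871) and without parental replicate 1 or 2 (0.129 and 0.279). IL6R, IL6ST, CXCR1 and CXCR2, the receptors of IL-6 and IL-8, were not listed. Of 12 tested binders and nucleases of AU-rich mRNAs, none passed in RNA, against 5.80% higher and 9.44% lower of all transcripts. In RPF only ZFP36L1, which promotes decay of such mRNAs, fell (0.35, limma adjusted p = 0.0463), against 7.03% lower of all transcripts. That call was lost under equal totals (limma adjusted p = 0.101) and when any of the 4 libraries was left out. In TE limma called none of the 12, while logistic regression called HNRNPD, KHSRP and ZFP36L1.

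In the knockdown, HNRNPC RNA was 2162 and 2146 in sgControl and 1147 and 1183 in sgHNRNPC cells, a fall of 0.89 (limma adjusted p = 5.14e-28). HNRNPC footprints were 73.4 and 111 against 54.4 and 67.0, lower in both, but the change of -0.57 ± 0.19 did not pass (limma adjusted p = 0.467). The depletion was thus partial, and the comparison asks what a partial depletion of HNRNPC alone does to the same genes. No member was called by limma in RNA, RPF or TE. Of the 6 listed members only NFKBIA, NFKB2 and ICAM1 passed the filter, and 0 of the 3 were called in RNA against 16.0% of all 4283 transcripts, 0 in RPF against 0.0233% and 0 in TE against 0%. At an unadjusted p under 0.05 there was 1 in RNA (NFKBIA), 1 in RPF (ICAM1) and none in TE, where all transcripts gave 27.8%, 7.68% and 7.75%. Calls by voom on recovered RNA reads, and by logistic regression for TE, were 0 as well. Both knockdown libraries lay below both controls for 1 of the 3 in RNA (NFKBIA, 34.6% of all transcripts) and 1 in RPF (ICAM1, 17.1%).

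**Figure D3:**
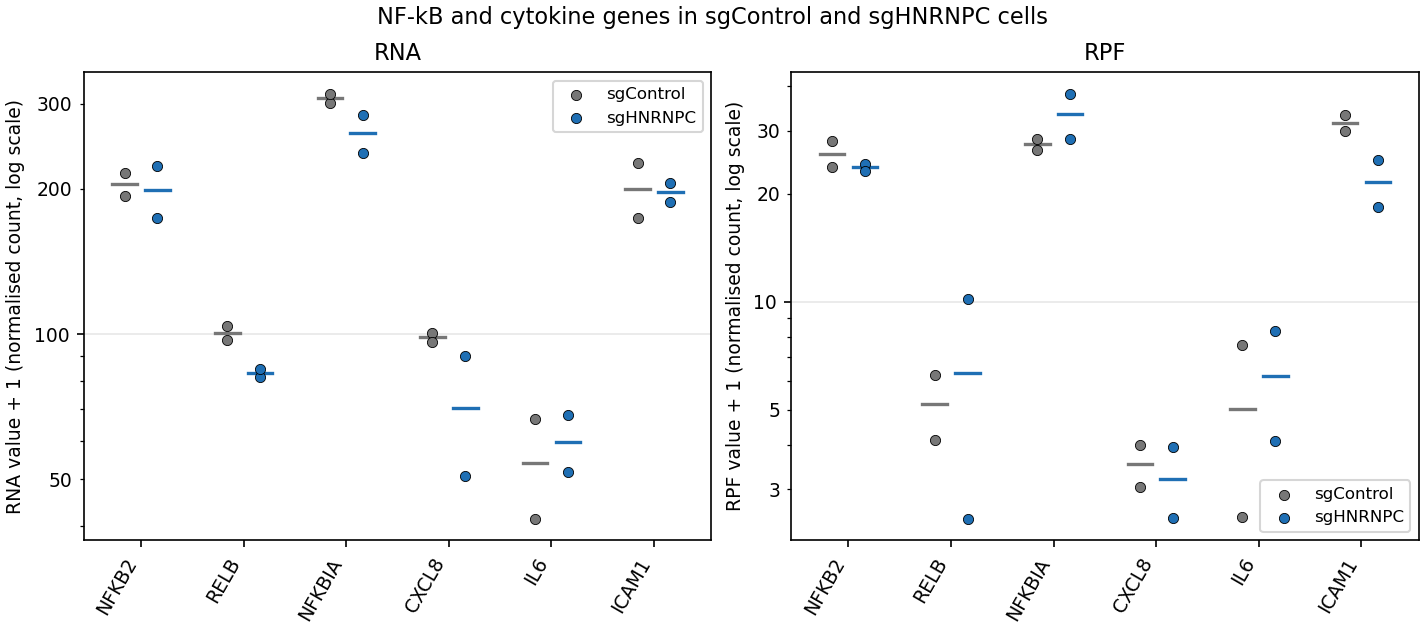
RNA (left) and RPF (right) values of the 6 listed members in sgControl (grey) and sgHNRNPC (blue) cells, as normalised count plus 1 on a log scale; each point is 1 library and each bar the mean of 2. CXCL8, RELB and NFKBIA have both blue points below both grey points in RNA, ICAM1 has them below in RPF, and the RPF values of CXCL8, IL6 and RELB run from 1.48 to 9.20 before the 1 is added.

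NFKBIA RNA was 300 and 314 in sgControl and 283 and 236 in sgHNRNPC, a change of -0.25 ± 0.10 (limma adjusted p = 0.0885), while its RPF value was 27.5 and 25.5 against 27.5 and 37.1 (0.26 ± 0.25, limma adjusted p = 0.838). Its TE change was 0.51 ± 0.26 (limma adjusted p = 0.642). RNA was thus lower in both knockdown libraries and footprints were not. Without sgHNRNPC replicate 1 the RNA change was -0.38 and passed (adjusted p = 0.0379).

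ICAM1 RNA was 225 and 173 in sgControl and 205 and 187 in sgHNRNPC (-0.01 ± 0.12, limma adjusted p = 0.977). The footprint value was 29.0 and 32.1 against 23.9 and 17.4, lower in both knockdown libraries, but the change of -0.56 ± 0.26 did not pass (limma adjusted p = 0.62). NFKB2 overlapped in both kinds, with RNA of 215 and 192 against 222 and 173 (-0.06 ± 0.12, limma adjusted p = 0.813) and RPF of 27.0 and 22.8 against 23.3 and 22.1 (-0.12 ± 0.27, limma adjusted p = 0.949). The TE change of ICAM1 was -0.55 ± 0.30 (limma adjusted p = 0.642).

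CXCL8, IL6 and RELB were listed in the knockdown table but failed the filter on footprints. CXCL8 RNA was 99.6 and 95.2 in sgControl and 89.2 and 49.7 in sgHNRNPC, lower in both, and with no filter its change was -0.54 ± 0.19 (limma adjusted p = 0.044), where 6.64% of all 8980 transcripts were called lower. Its RPF value was 2.99 and 2.05 against 2.94 and 1.49. IL6 RNA was 65.7 and 40.4 against 67.1 and 50.7, with RPF of 1.51 and 6.57 against 3.08 and 7.31, both overlapping. RELB RNA was 96.4 and 103 against 80.4 and 83.8 (-0.28 with no filter, limma adjusted p = 0.337). The direction of the CXCL8 RNA change was opposite to that in MDA-LM2, and the difference between the 2 comparisons was not tested, since they come from separately normalised tables.

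Of the 110 further pathway genes 76 were listed and 32 tested, and 6 were called lower and none higher in RNA, against 11.3% lower and 4.72% higher of all transcripts. CSF1 fell from 1061 and 945 to 652 and 736 (by 0.53, limma adjusted p = 9.46e-11), with RPF of 56.2 and 42.0 against 48.8 and 43.9. PLAU fell by 0.29 (limma adjusted p = 4.25e-05), TNFRSF1A by 0.36 (0.00119), NFKBIZ by 0.33 (0.0268) and IKBKG by 0.42 (0.044). BIRC2, which the naming rule leaves out, was the remaining gene. The IKBKG call did not hold with no filter (adjusted p = 0.0624), with the replicate block (0.0513) or without any of the 4 libraries in turn (0.0654 to 0.245). That of TNFRSF1A was lost without sgControl replicate 2 or sgHNRNPC replicate 1 (0.0726 and 0.0775), and that of NFKBIZ without sgControl replicate 2, sgHNRNPC replicate 1 or sgHNRNPC replicate 2 (0.356, 0.0765 and 0.162). None of the 32 was called by limma in RPF or in TE. At an unadjusted p under 0.05 there were 0 in RPF and 2 in TE, against 7.68% and 7.75% of all transcripts. Logistic regression for TE called 0.

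Levels of different genes can be compared only per length, so RNA was divided by transcript length and RPF by coding length, and each gene was ranked among the transcripts of its own lysate. By RNA per kb the order in parental cells was NFKBIA (378), LIF (195), NFKB2 (140), ICAM1 (121), RELB (113), BIRC3 (16.4), CXCL8 (14.3), TNFAIP3 (7.79) and IL6 (6.45), where each figure is the mean of 2 lysates and the median transcript was 75.6 and 75.8. ICAM1 and RELB overlapped between lysates, as did IL6 and TNFAIP3; the other neighbours did not overlap. In MDA-LM2 the order was NFKBIA (372), LIF (225), NFKB2 (184), ICAM1 (182), RELB (130), CXCL8 (36.0), IL6 (28.0), BIRC3 (16.7) and TNFAIP3 (13.2). CXCL8 and IL6 thus stood above BIRC3 there and below it in parental cells, although IL6 (15.8 and 40.1) overlapped both CXCL8 and BIRC3, as NFKB2 and ICAM1 overlapped each other.

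By RPF per kb of coding sequence CXCL8 and IL6 ranked higher than by RNA in every parental and MDA-LM2 lysate, and LIF lower. CXCL8 lay at percentiles 48.6 and 47.2 of its parental lysates by RPF and at 9.7 and 12.4 by RNA, and in MDA-LM2 at 82.7 and 79.8 by RPF and at 32.5 and 24.9 by RNA. IL6 lay at percentiles 15.7 and 37.1 by RPF in parental cells and at 69.3 and 66.3 in MDA-LM2. NFKBIA ranked highest of the members by either measure, at percentiles 83.7 and 83.3 by RPF in parental cells. The ratio of both, RPF per kb over RNA per kb, placed CXCL8 between percentiles 94.8 and 98.9 and IL6 between percentiles 89.6 and 99.3 in the 4 lysates of this table. RELB lay between percentiles 4.1 and 20.4 and LIF between percentiles 7.6 and 27.8. ICAM1, NFKB2 and NFKBIA lay between percentiles 41.8 and 67.5, and BIRC3 and TNFAIP3, with few footprints, ranged widely. Ratios of genes with few counts vary widely between lysates, and reads in untranslated regions count for RNA and not for the coding length.

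In the knockdown table, which lists other transcripts and was normalised on its own, the same genes stood at other ranks. By RNA per kb CXCL8 lay at percentiles 44.6 and 43.0 in sgControl and at 41.1 and 21.9 in sgHNRNPC, and IL6 at 43.2 and 26.4 and at 44.7 and 34.7. ICAM1, NFKB2 and RELB lay lower than in the parental lysates, RELB at percentiles 32.2 and 34.6 in sgControl against percentiles 62.4 and 58.9 in parental cells, while NFKBIA kept a high rank at 80.3 and 81.4. These values stand side by side, and no test links the tables. The ratio for CXCL8 lay at percentiles 76.9 and 61.5 in sgControl, and that for IL6 spanned percentiles 14.3 to 91.7.

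**Figure D4:**
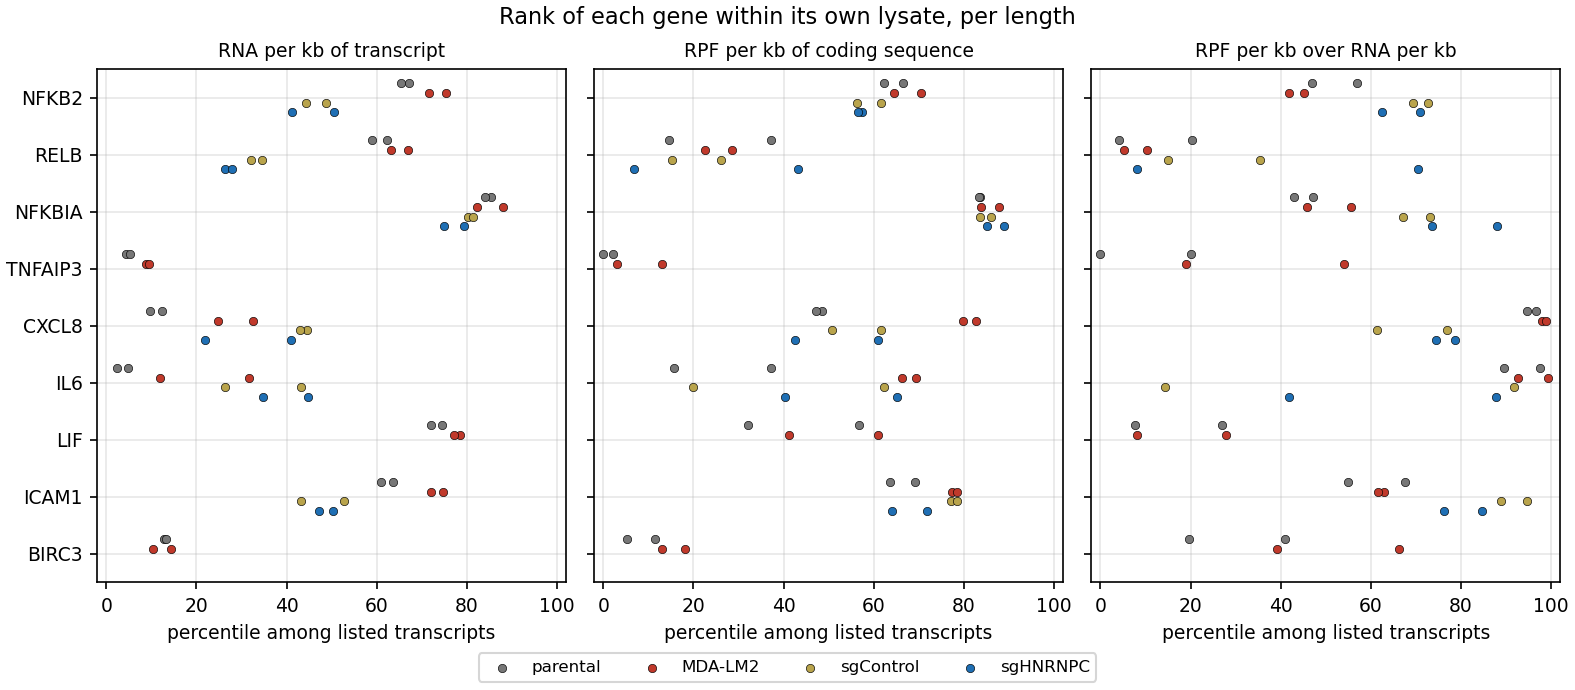
Percentile rank of the 9 listed members among the transcripts of the same lysate by RNA per kb of transcript (left), RPF per kb of coding sequence (middle) and the ratio of both (right); each point is 1 lysate, coloured by line, and the 2 tables list different transcripts. CXCL8 and IL6 move right from parental to MDA-LM2 in the left and middle panels and lie near the right edge in the right panel for these lines.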

How the data were processed

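RPF and RNA libraries from 16 samples (4 lines, 2 replicates) were grouped by their titles. Per the labels, Bowtie2 2.3.5, cutadapt 2.3, UMI-tools, SAMtools and hg38 were used. The deposited values are a linear signal per transcript, for which the authors aligned reads to 1 mRNA for each gene (that with the longest CDS), counted them and scaled the counts by median-of-ratios factors separately for RNA and RPF. Whether the optional correction for ribosome stalling was applied to the RPF values is not stated. RNA values were whole multiples of a step in every library (100.0% within 0.001 reads), which gave the RNA reads; RPF values were not. The scaling assumes that most transcripts do not change.

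Transcript identifiers were matched to GENCODE version 44 (97.9% of each table); where several transcripts share a symbol, that with the higher mean RNA was used. Transcripts whose mean reached 10 in RNA and in RPF were tested in R 4.3.3 with limma 3.58.1 (trended empirical Bayes, two-sided) on log2(value + 1), with 4 libraries per RNA or RPF fit and 8 per TE fit. A fold is on the log2(value + 1) scale and understates changes of low genes. No interval that needs RPF depth was computed. The tests were checked on simulated tables. The members and lists were chosen with earlier results of these data known. Named were the members, the other subunits, CXCL1, CXCL3, HNRNPC, cell type markers and, of 21 other list genes called in any fit, the 20 with the largest change. Alternatives were another added value (0.5, 5), no filter, a minimum mean of 50, a filter on one kind alone, equal totals, a replicate block, each replicate left out, logistic regression and TE within lysates; voom on recovered RNA reads was added after the data were seen. Replicates are biological duplicates, and labels give no batch.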

Additional observations from a re-analysis of the deposited data

How the results depend on the processing

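CXCL8 RNA kept its direction and call under the 11 alternatives in which it was tested (changes of 1.10 to 1.47, limma adjusted p up to 0.0314), and IL6 RPF under the 10 in which it was tested (1.55 to 2.84, adjusted p up to 0.0128). Between MDA-LM2 and parental cells, members called in RNA were 1 of those left with a minimum mean of 50, and 2 to 6 when a replicate was left out; in RPF they were 1 with a minimum mean of 50 and 2 to 3 when a replicate was left out. Over all transcripts, RNA calls were 440 with a minimum mean of 50 and 492 to 4235 when a replicate was left out, with 492 and 586 without parental replicate 1 or 2 and 4235 and 2828 without MDA-LM2 replicate 1 or 2; RPF calls were 641 to 855 when a replicate was left out, the lowest without MDA-LM2 replicate 2. TE calls over all transcripts were 0 with no filter, 0 with equal totals, 0 for TE within each lysate, 5 with the replicate block, 0 to 7 when a replicate was left out and 181 by logistic regression, which takes normalised counts as reads and leaves out the spread between replicates. In the knockdown, members called in RNA were 1 (CXCL8) with no filter, 1 with the filter on RNA alone and 0 to 1 when a replicate was left out. RNA calls over all transcripts were 228 with a minimum mean of 50 and 371 to 569 when a replicate was left out (429 without sgControl replicate 1, 371 without sgHNRNPC replicate 2). RPF calls were 0 with no filter, 2 with equal totals, 12 with the replicate block and 0 to 41 when a replicate was left out (41 and 15 without sgHNRNPC replicate 1 or 2), and TE calls by logistic regression were 11.

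Signs turned with equal totals for NFKBIA RNA (0.10), LIF TE (-0.01) and ICAM1 TE (-0.06) in MDA-LM2, none of them called. When a replicate was left out, changes that had not been called took both signs, in MDA-LM2 for RNA of NFKBIA (-0.44 to 0.31), RPF of LIF (-0.32 to 0.95), NFKBIA (-0.02 to 0.36), NFKB2 (-0.03 to 0.29), RELB (-0.65 to 0.85) and RELA (-0.31 to 0.08), TE of IL6 (-0.41 to 1.06), LIF (-0.48 to 0.71), RELB (-0.75 to 0.56) and ICAM1 (-0.18 to 0.28), and in the knockdown for RNA of NFKB2 (-0.24 to 0.12), ICAM1 (-0.20 to 0.18), NFKB1 (-0.05 to 0.02) and RELA (-0.04 to 0.09), RPF of RELA (-0.26 to 0.17), TE of NFKB2 (-0.21 to 0.08).

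The replicate numbers were not shown to pair the samples: with 2 pairs, the differences between replicates correlated between the lines by 0.234 and 0.044 for RNA and RPF of the MDA-LM2 table and by -0.004 and 0.028 for the knockdown. With the replicate block, RNA calls over all transcripts were 1775 and 723, 4 members were called in MDA-LM2 RNA (NFKB2 joined), and no member was lost. The planned edgeR and DESeq2 fits were not run, and voom on the recovered RNA reads was run in their place for RNA. RPF depth is unknown, and the least abundant members in RPF had the widest errors (SE of 0.52 for BIRC3 and 0.73 for TNFAIP3 in MDA-LM2, with no filter).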
